A study of Homo sapiens with 6 samples.

Results

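The MHC class II genes and their coactivator CIITA were followed in the diffuse large B-cell lymphoma line SU-DHL-8, treated with GSK3685032, a small molecule that inhibits DNMT1, the maintenance DNA methyltransferase. The set held 10 of the 35974 genes in the deposited table, chosen by gene symbol: the alpha and beta chains HLA-DRA, HLA-DRB1, HLA-DPA1, HLA-DPB1, HLA-DQA1 and HLA-DQB1, the peptide-exchange chains HLA-DMA and HLA-DMB, the invariant chain CD74, and CIITA. Poly(A) RNA was sequenced from 3 libraries of inhibitor-treated cells and 3 libraries of cells given the solvent DMSO. All 6 came from a single cell line of lymph node origin with the genotype DNMT1 wild type. The labels name the treatment GSK3685032 for inhibitor replicate 1, GSK3685033 for replicate 2 and GSK3685034 for replicate 3, but the design text has only GSK3685032. The dose and how long the cells were treated are not given here. The labels do not say whether replicates were separate cultures, so p-values cover the spread among these 6 libraries alone, and that spread may be technical.

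MHC class II molecules are pairs of an alpha and a beta chain that show peptides from the endosomal route to CD4+ T cells, and B cells carry them as antigen-presenting cells. Their genes share a promoter module in which the RFX complex binds an X box and NF-Y binds a Y box, an inverted CCAAT element. CIITA does not bind DNA itself: it joins these factors as a coactivator and is known as the master switch of class II transcription. CD74 holds new class II dimers together and blocks their groove, and HLA-DM later exchanges the CD74 remnant for antigenic peptide.

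Promoter windows were compared because the X and Y boxes are where CIITA is recruited. The RefSeq promoter table (GRCh38.p14, from 250 bases before to 50 bases after each gene start) held 8 of the 10 members, all but HLA-DRA and CIITA. In the stretches below, written in the direction of the gene, capitals mark a match to a short X core, CNAGNNAC with any preceding C of the longer core CCNAGNNAC, and to the Y core, ATTGG or its reverse complement CCAAT.
CD74 promoter, chr5:150412953-150413000, minus strand: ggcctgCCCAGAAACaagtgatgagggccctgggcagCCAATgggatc
HLA-DPB1 promoter, chr6:33075849-33075901, plus strand: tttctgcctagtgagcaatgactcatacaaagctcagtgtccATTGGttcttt
HLA-DMB promoter, chr6:32941069-32941125, minus strand: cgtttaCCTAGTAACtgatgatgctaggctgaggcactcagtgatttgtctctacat
HLA-DMA promoter, chr6:32953166-32953219, minus strand: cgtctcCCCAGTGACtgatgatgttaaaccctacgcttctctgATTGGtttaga
HLA-DRB1 promoter, chr6:32589884-32589935, minus strand: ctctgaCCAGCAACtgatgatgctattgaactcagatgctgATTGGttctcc
HLA-DQA1 promoter, chr6:32637296-32637348, plus strand: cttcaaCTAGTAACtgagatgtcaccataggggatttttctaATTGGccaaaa
These 6 were printed because their genes differed in response, as the values below show, while 5 of the 6 windows carry the short X core. Over all 8 members with a promoter, the longer X core, searched on both strands, was in 5, against 16.5% of the 35116 promoters in the table. The short X core, added after the data had been seen, was in 7 of 8, against 39.3% of all promoters. The Y core was in 7 of 8, against 34.6%. A still looser form, also added after the data had been seen, allowed the Y core in either orientation. The short X core followed within 40 bases by such a Y core was in 5 of 8, against 2.57% of all promoters. These 5 were HLA-DRB1, HLA-DQA1, HLA-DQB1, HLA-DMA and CD74. HLA-DMB has its Y core elsewhere in the promoter, outside the printed stretch. The planned form, the longer X core followed by ATTGG on the same strand, was in 2 of 8, HLA-DQB1 and HLA-DMA, against 0.507%.

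The CG dinucleotide, the substrate of DNMT1, was sparse in most of these promoters. HLA-DRB1 and HLA-DQA1 had 1 CG in these promoters, HLA-DPB1 had 2, HLA-DMA and CD74 had 3, HLA-DMB had 4 and HLA-DQB1 had 7. HLA-DPA1 has a pair of entries, with 4 and 27 CG. The median over all promoters was 14, with quartiles of 4 and 28, and 39.3% of all promoters held 7 or fewer. These are counts in the reference sequence, and methylation was not measured here.

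Counts per library summed to between 53846028 and 56795603 with the inhibitor and between 57451935 and 75304441 with DMSO. DNMT1, the drug's target, had 12.7 ± 0.774 FPKM with the inhibitor and 33.0 ± 0.690 FPKM with DMSO (SD, n = 3 each). FPKM is a level scaled to gene length and to library depth. All 7 B cell markers were at 1 FPKM or more in both groups, and their summed FPKM was 803 to 869 with the inhibitor and 869 to 885 with DMSO. Of these markers 3 rose, 3 fell, MS4A1 most at a log2 fold change of -1.95, and 1 did not pass the test. Over all tested genes 38.1% rose and 27.3% fell. Markers of myeloid and dendritic cells, which also carry class II, summed to 1.84 to 2.55 FPKM with the inhibitor and 0.587 to 0.823 FPKM with DMSO over 8 genes, of which 3 were at 0 in every DMSO library. T cell markers (3 of 6 in the table) summed to 0.318 to 0.729 FPKM with the inhibitor and 0 to 0.0286 FPKM with DMSO, with 2 at 0 in every DMSO library. Plasma cell markers summed to 107 to 114 FPKM with the inhibitor and 148 to 149 FPKM with DMSO over 5 genes, of which 2 rose (SDC1, at 0 in every DMSO library, and PRDM1), 2 fell and 1 did not pass the test. XBP1, which fell, and IRF4 made up most of that sum. Epithelial and stromal markers summed to 2.81 to 4.22 FPKM with the inhibitor and 0.0937 to 0.142 FPKM with DMSO over 5 genes, of which 3 were at 0 in every DMSO library. The part of these markers in the class II results was not tested, and in bulk libraries a change in the number of cells of a type cannot be told apart from a change in RNA per cell.

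CIITA fell with the inhibitor while 6 of the 9 genes it is known to activate rose. Of the 10 members, 6 rose (HLA-DRA, HLA-DPA1, HLA-DPB1, HLA-DQA1, HLA-DMB and CD74), 1 fell (CIITA), and 3 did not pass the test (HLA-DRB1, HLA-DQB1 and HLA-DMA), although HLA-DRB1 and HLA-DMA passed, as higher, under upper-quartile scaling, which moved the median of all genes up by 0.17. The background was high: by edgeR's quasi-likelihood test at an adjusted p of 0.05, 38.1% of the 20783 genes tested rose and 27.3% fell, 65.4% in all. All 10 members passed the filter on low counts. The FPKM of the groups did not overlap for 6 members that were higher and for 1 that was lower, against 41.7% and 30.0% of tested genes, 71.7% in all. The median log2 fold change of all tested genes was 0.14, and that of the 12332 tested genes with at least 1 FPKM in at least 3 libraries was -0.07; among these more abundant genes 33.2% rose and 40.6% fell. That balance turned when such genes were fitted and scaled on their own, with 4826 of 12395 higher, 4414 lower and a median of 0.03.

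**Figure D1:**
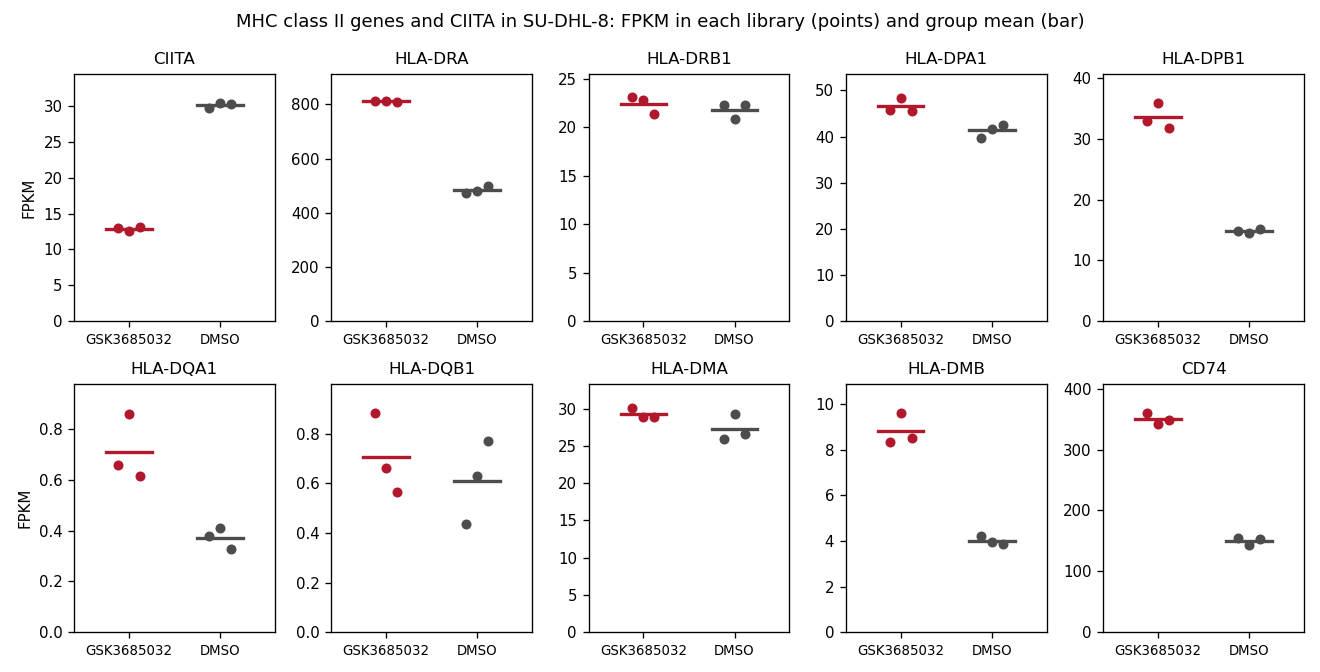
Level of each of the 10 genes in FPKM (vertical axes from 0, a scale per gene), with a point for each library, GSK3685032 on the left and DMSO on the right, and a bar at each group's mean (n = 3). CIITA lies lower in every inhibitor library than in any DMSO library, HLA-DRA, HLA-DPB1, HLA-DMB and CD74 lie higher without overlap, and HLA-DRB1, HLA-DQB1 and HLA-DMA overlap.

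CIITA (ENSG00000179583, chr16:10866222-10943021, plus strand) had 12.9, 12.6 and 13.1 FPKM in the inhibitor libraries, against 29.7, 30.4 and 30.3 FPKM in the DMSO libraries. Every inhibitor library lay below every DMSO library, and the groups were far apart compared with the spread within them. The fold was 0.425, a log2 fold change of -1.23 (SE 0.0385, 95% interval -1.32 to -1.15, adjusted p = 1.66e-08 in edgeR). Relative to the median of all tested genes the log2 fold change was -1.38.

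CD74 (ENSG00000019582, chr5:150401637-150412969, minus strand) encodes the invariant chain and was the second most abundant member. It had 359, 342 and 349 FPKM in the inhibitor libraries, against 155, 143 and 153 FPKM in the DMSO libraries, with no overlap. The fold was 2.32, a log2 fold change of 1.21 (SE 0.0456, adjusted p = 3.88e-08 in edgeR). It lies on another chromosome than the chain genes, and its promoter printed above holds an X core and a reversed Y core. CIITA had a log2 fold change of nearly the same size in the opposite direction.

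HLA-DRA (ENSG00000204287, chr6:32439878-32445046, plus strand), the alpha chain of HLA-DR, was the most abundant member in every library. It had 812, 814 and 810.3 FPKM in the inhibitor libraries, against 474, 482 and 499.8 FPKM in the DMSO libraries, with a log2 fold change of 0.74 (SE 0.0382, adjusted p = 2.30e-07 in edgeR). All inhibitor libraries were higher than all DMSO libraries. Its beta chain HLA-DRB1 (ENSG00000196126, chr6:32577902-32589848, minus strand) had 23.1, 22.8 and 21.4 FPKM with the inhibitor, against 22.3, 20.9 and 22.3 FPKM with DMSO. These values overlap, and the log2 fold change was 0.03 with a 95% interval of -0.09 to 0.16 (adjusted p = 0.614 in edgeR), so a change of the size seen for HLA-DRA lies outside the interval.

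Within HLA-DP it was the beta chain that rose more. HLA-DPB1 (ENSG00000223865, chr6:33075990-33089696, plus strand) had 32.9, 35.9 and 31.8 FPKM with the inhibitor, against 14.9, 14.5 and 15.2 FPKM with DMSO, a log2 fold change of 1.17 (SE 0.0534, adjusted p = 1.12e-07 in edgeR). HLA-DPA1, the alpha chain (ENSG00000231389, chr6:33064569-33080775, minus strand), had 45.8, 48.3 and 45.5 FPKM with the inhibitor, against 39.8, 41.6 and 42.6 FPKM with DMSO. The groups do not overlap, and the log2 fold change was 0.16 (SE 0.0445, adjusted p = 0.00875 in edgeR), or 0.02 relative to the median of all tested genes. Without DMSO replicate 1 the call was lost (0.13, adjusted p = 0.0538 in edgeR). The genes overlap by 4786 bases on opposite strands, and the sources used here do not say whether counting used strand, so reads of that stretch may be assigned to either gene.

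HLA-DQ was the least abundant pair. HLA-DQA1, its alpha chain (ENSG00000196735, chr6:32628179-32643684, plus strand), had 0.658, 0.862 and 0.617 FPKM with the inhibitor, against 0.378, 0.412 and 0.328 FPKM with DMSO, a log2 fold change of 0.92 (SE 0.201, adjusted p = 0.00265 in edgeR). HLA-DQB1, its beta chain (ENSG00000179344, chr6:32659467-32668383, minus strand), had 0.886, 0.661 and 0.567 FPKM with the inhibitor, against 0.435, 0.629 and 0.770 FPKM with DMSO. The groups overlap for HLA-DQB1, whose log2 fold change of 0.20 had a 95% interval of -0.40 to 0.80 (adjusted p = 0.535 in edgeR), wide enough to hold either direction. The counts behind these values were 250 to 366 with the inhibitor and 162 to 231 with DMSO for HLA-DQA1, and a read pair was worth about 4 counts.

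HLA-DM is the peptide exchanger. HLA-DMB, its beta chain (ENSG00000242574, chr6:32934629-32941028, minus strand), had 8.34, 9.60 and 8.51 FPKM with the inhibitor, against 4.21, 3.96 and 3.88 FPKM with DMSO, a log2 fold change of 1.13 (SE 0.0723, adjusted p = 8.32e-07 in edgeR). HLA-DMA, the alpha chain next to it (ENSG00000204257, chr6:32948613-32969094, minus strand), had 30.0, 28.9 and 28.8 FPKM with the inhibitor, against 26.0, 29.3 and 26.6 FPKM with DMSO. DMSO replicate 2 lay inside the inhibitor range for HLA-DMA, and the log2 fold change was 0.09 with a 95% interval of -0.04 to 0.23 (adjusted p = 0.188 in edgeR). Without that library it passed the test (0.15, adjusted p = 0.0393 in edgeR). The promoters of both genes carry the longer X core.

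**Figure D2:**
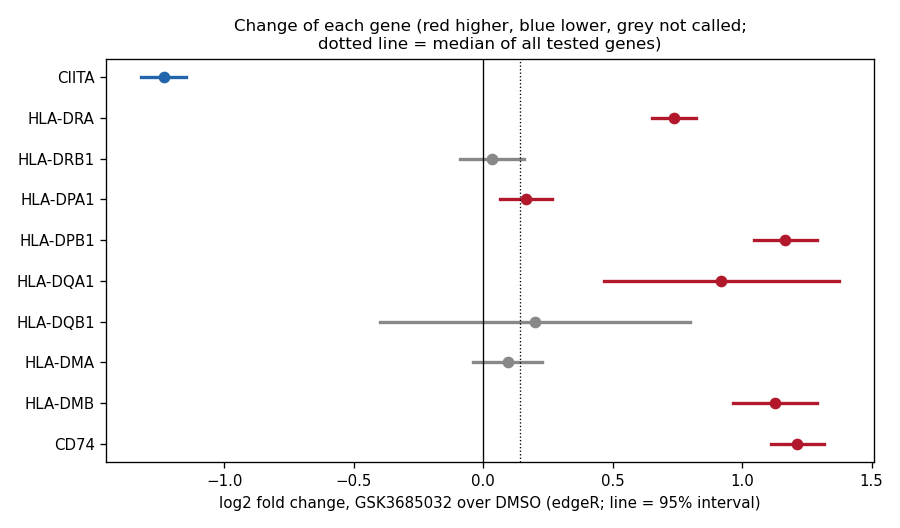
Log2 fold change of each gene, GSK3685032 over DMSO (points, with the 95% interval from edgeR as lines), red where it rose, blue where it fell and grey where it did not pass the test. CIITA lies at -1.23, CD74, HLA-DPB1 and HLA-DMB lie above 1, and HLA-DPA1, HLA-DRB1 and HLA-DMA lie near the dotted line, the median of all tested genes at 0.14.

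CIITA also held a lower place in the order of levels with the inhibitor. By mean FPKM the order with the inhibitor was HLA-DRA, CD74, HLA-DPA1, HLA-DPB1, HLA-DMA, HLA-DRB1, CIITA, HLA-DMB, HLA-DQA1 and HLA-DQB1. Neighbours in that order did not overlap between libraries, except HLA-DQA1 and HLA-DQB1. CIITA ranked 7 of 10 with the inhibitor and 4 of 10 with DMSO, and HLA-DPB1 ranked 4 with the inhibitor and 7 with DMSO. With DMSO no neighbours in the order overlapped. Together the 10 genes took 0.383% ± 0.00520 of the counts with the inhibitor and 0.261% ± 0.00520 with DMSO (SD, n = 3 each). CD74, HLA-DRA and CIITA had the largest counts in both groups, so this sum mixes genes that rose with CIITA, which fell. Their mean counts, not scaled to depth, were 96080, 61244 and 17603 with the inhibitor. With DMSO they were 48255, 42969 and 48422.

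CIITA was related to its targets by dividing each gene's FPKM by that of CIITA in the same library. The ratio was higher with the inhibitor for all 9 genes, those that did not pass the test themselves included. HLA-DRA had 62.8, 64.4 and 62.0 times the FPKM of CIITA in the inhibitor libraries, against 16.0, 15.8 and 16.5 times in the DMSO libraries. CD74 had 27.8, 27.1 and 26.7 times that of CIITA with the inhibitor, against 5.22, 4.70 and 5.05 times with DMSO. The mean log2 ratio differed most for CD74, by 2.45, followed by HLA-DPB1 at 2.40, HLA-DMB at 2.36, HLA-DQA1 at 2.15 and HLA-DRA at 1.97. It differed by 1.45 for HLA-DQB1, 1.40 for HLA-DPA1, 1.33 for HLA-DMA and 1.27 for HLA-DRB1. All 9 ratios share the denominator CIITA, whose own log2 fold change of -1.23 enters each of these differences, and a gene at a steady level would also have a higher ratio. No ratio overlapped between groups, and each gave p = 0.1 in a two-sided exact permutation test (0.1 after Benjamini-Hochberg adjustment over 9 ratios), the smallest p that 3 libraries against 3 allow. No correlation between CIITA and its targets is given, because the 6 libraries fall into 2 separate groups of 3.

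**Figure D3:**
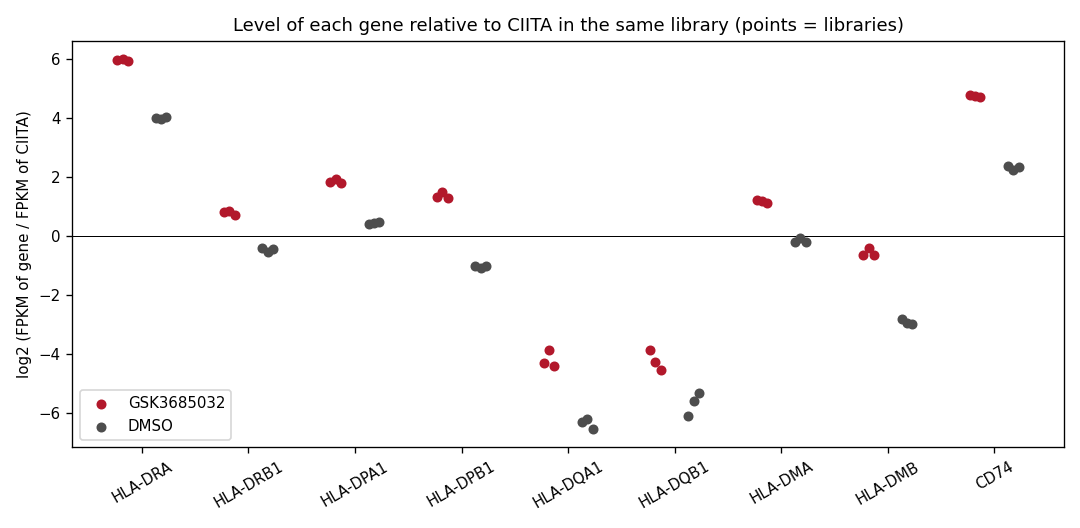
FPKM of each class II gene and CD74 divided by that of CIITA in the same library, on a log2 scale, with a point for each of the 3 GSK3685032 libraries (red) and the 3 DMSO libraries (grey). Every red point lies above every grey point of the same gene, by a mean of 1.27 for HLA-DRB1 to 2.45 for CD74.

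The ratio of alpha to beta chain did not overlap between groups in 3 of 4 dimers. For the FPKM of single genes, 71.7% of all tested genes had no overlap. The share among ratios of other gene pairs was not computed. HLA-DRA over HLA-DRB1 was 35.2, 35.7 and 37.9 with the inhibitor, against 21.3, 23.1 and 22.4 with DMSO, a difference of 0.70 in mean log2 ratio. HLA-DPA1 over HLA-DPB1 was 1.39, 1.34 and 1.43 with the inhibitor, against 2.68, 2.87 and 2.80 with DMSO, a difference of -1.0. HLA-DMA over HLA-DMB was 3.60, 3.01 and 3.39 with the inhibitor, against 6.17, 7.39 and 6.85 with DMSO, a difference of -1.03. The ratio was thus higher with the inhibitor for HLA-DRA over HLA-DRB1 and lower in HLA-DP and HLA-DM. These 3 ratios did not overlap between groups (exact permutation p = 0.1 each, two-sided, 0.133 adjusted over 4 ratios). The HLA-DR ratio leaves out HLA-DRB5, a further beta chain gene at 7.86 FPKM with the inhibitor and 7.60 FPKM with DMSO. The HLA-DP genes overlap by 4786 bases on opposite strands, so reads there may be assigned to either gene. HLA-DQA1 over HLA-DQB1 was 0.742, 1.30 and 1.09 with the inhibitor, against 0.869, 0.656 and 0.426 with DMSO, a difference of 0.71, as large as for HLA-DR. Its values varied more within a group and overlap between groups (exact permutation p = 0.2, adjusted p = 0.2).

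Over the rest of the class II pathway the changes ran in both directions, at shares near those of all tested genes (38.1% higher, 27.3% lower). Of 47 genes in 5 lists, 44 were tested, of which 17 rose (38.6%), 14 fell (31.8%) and 13 did not pass the test. The median log2 fold change over these 44 was 0.02, against 0.14 over all tested genes. Among tested genes with at least 1 FPKM in at least 3 libraries, 33.2% rose and 40.6% fell in the same fit, with a median of -0.07. Fitted and scaled on their own, such genes had 4826 of 12395 higher and 4414 lower.

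Among the factors that bind the class II promoter, 2 of 7 rose, 3 fell and 2 did not pass the test. That is 28.6% higher and 42.9% lower, against 38.1% and 27.3% of all tested genes. RFXAP, a subunit of the RFX complex whose loss is a cause of bare lymphocyte syndrome, had 7.99, 8.45 and 7.95 FPKM with the inhibitor, against 17.3, 16.6 and 17.0 FPKM with DMSO. It fell by 1.07 on the log2 scale (adjusted p = 3.93e-07 in edgeR), with no overlap. RFXANK, another RFX subunit, rose to 16.1 ± 0.429 FPKM with the inhibitor, against 12.4 ± 0.548 FPKM with DMSO, and RFX5, which contributes the DNA-binding domain, had 56.3 ± 0.832 FPKM with the inhibitor and 59.2 ± 1.19 FPKM with DMSO (SD, n = 3 each; adjusted p = 0.0860 in edgeR). The NF-Y subunits NFYC and NFYB fell, with log2 fold changes of -0.88 and -0.76, while NFYA rose by 0.26. CREB1, which binds the second part of the X box, had a log2 fold change of -0.01 and did not pass the test.

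Among 14 regulators of CIITA, 5 rose, 5 fell and 4 did not pass the test. That is 35.7% in each direction, against 38.1% higher and 27.3% lower of all tested genes. IRF2, which binds the interferon-responsive CIITA promoter together with IRF1, had 13.8 ± 0.608 FPKM with the inhibitor and 30.9 ± 0.879 FPKM with DMSO, and IRF1 had 6.81 ± 0.413 FPKM with the inhibitor and 13.5 ± 0.126 FPKM with DMSO (SD, n = 3 each). They fell, with log2 fold changes of -1.16 (adjusted p = 5.85e-08 in edgeR) and -0.99 (adjusted p = 3.95e-07 in edgeR). PRDM1, the repressor that silences CIITA in plasma cells, rose to 1.42 ± 0.243 FPKM with the inhibitor, against 0.819 ± 0.0800 FPKM with DMSO, a log2 fold change of 0.79 (adjusted p = 0.00165 in edgeR). JAK2, a kinase of the interferon-gamma receptor, fell by 0.50 on the log2 scale. SPI1 and IRF4, B cell factors of the CIITA promoter, did not pass the test, with log2 fold changes of 0.20 and -0.06. IRF8 stayed at or below 0.0600 FPKM in every library.

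Of 9 coactivators and corepressors that work with CIITA, 3 rose, 4 fell and 2 did not pass the test. That is 33.3% higher and 44.4% lower, against 38.1% and 27.3% of all tested genes. The coactivator NCOA1 rose by 0.80 on the log2 scale, and the acetyltransferase KAT2B and the arginine methyltransferase CARM1 fell by 0.71 and 0.57. EP300 and HDAC1, an acetyltransferase and a deacetylase, had log2 fold changes of 0.28 and -0.28, both past the test.

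Of 9 tested genes of antigen processing and class II turnover, 6 rose (66.7%), 2 fell (22.2%) and 1 did not pass the test. Their median log2 fold change was 0.30. Over all tested genes 38.1% rose and 27.3% fell, with a median of 0.14. The difference between this list and all genes was not tested. LGMN, a lysosomal asparaginyl endopeptidase that cuts some antigens, had 1.52, 1.48 and 1.09 FPKM with the inhibitor and 0 in every DMSO library, at least 94.9-fold higher when the DMSO group is set to 12 counts in all, or 3 read pairs. CTSB, a lysosomal protease, had 9.86 ± 0.409 FPKM with the inhibitor and 3.89 ± 0.125 FPKM with DMSO (SD, n = 3 each), a log2 fold change of 1.33. MARCHF1, a ubiquitin ligase that sends class II molecules to degradation, rose to 0.915 ± 0.136 FPKM with the inhibitor, against 0.429 ± 0.0449 FPKM with DMSO, a log2 fold change of 1.08. CTSH rose by 0.83 on the log2 scale, at 0.130 ± 0.0329 FPKM with the inhibitor and 0.0701 ± 0.0142 FPKM with DMSO. CTSS, the main protease of the late steps of CD74 cleavage in B cells, rose by 0.30, and SPPL2A, which clears the last CD74 fragment from the membrane, fell by 0.64. CTSL had too few counts to be tested.

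Of the other class II genes, HLA-DRB3 and HLA-DRB4 had no entry by symbol in the deposited table, and 1 of the 5 tested passed the test. Of all tested genes 65.4% passed. HLA-DOA, a chain of the HLA-DM inhibitor HLA-DO, rose to 38.5 ± 0.683 FPKM with the inhibitor, against 29.1 ± 0.578 FPKM with DMSO (SD, n = 3 each), a log2 fold change of 0.40 (adjusted p = 1.51e-05 in edgeR). HLA-DOB, its partner, had 2.15 ± 0.209 FPKM with the inhibitor and 2.63 ± 0.518 FPKM with DMSO, and did not pass the test. HLA-DRB5, the near copy of HLA-DRB1, had 7.86 ± 0.386 FPKM with the inhibitor and 7.60 ± 0.600 FPKM with DMSO, a log2 fold change of 0.04 next to the 0.03 of HLA-DRB1. In the class I presentation genes, 5 of 10 tested rose and 4 fell, with TAP1 at -0.67 and HLA-E at 0.26 on the log2 scale. That is 50% higher and 40% lower, against 38.1% and 27.3% of all tested genes.

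**Figure D4:**
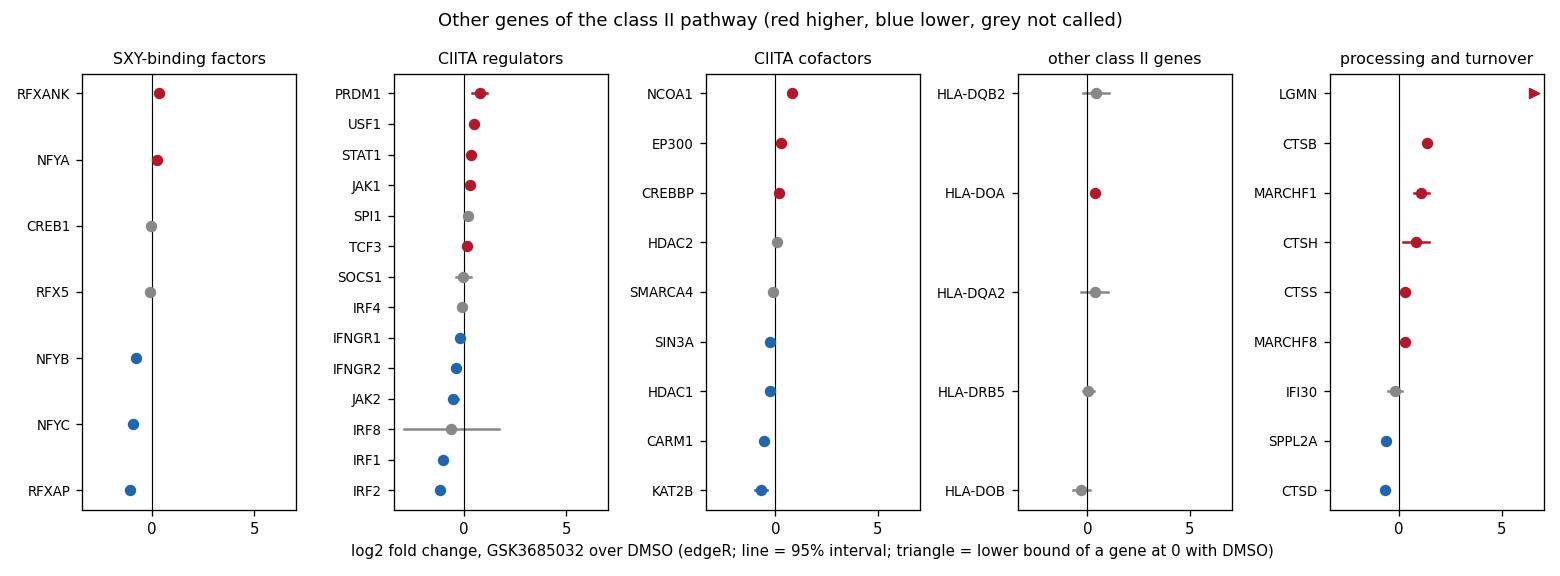
Log2 fold changes, GSK3685032 over DMSO, of the other class II pathway genes that were tested, in a panel for each list (points, with the 95% interval from edgeR as lines), red for higher, blue for lower and grey for not past the test. RFXAP, IRF2 and IRF1 lie near -1, CTSB and MARCHF1 lie above 1, and the triangle for LGMN marks a lower bound, since its DMSO counts were all 0.

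Genes around the members changed in both directions. The counts below stand beside 38.1% of all tested genes that rose and 27.3% that fell, 65.4% in all. On chromosome 6, 25 genes were tested over the 650 kb between the outer ends of HLA-DRA and HLA-DPB1 (chr6:32439878-33089696), of which 8 were members. Of the 17 others 2 rose (TAP2 and HLA-DOA), 5 fell and 10 did not pass the test. All that fell lie between HLA-DQ and HLA-DM. PPP1R2P1 and ENSG00000289047 fell most, with log2 fold changes of -3.18 and -1.68, the former to 0.112 FPKM with the inhibitor. The proteasome genes PSMB8 and PSMB9 and the peptide transporter TAP1, which serve class I, fell by 1.08, 0.64 and 0.67 on the log2 scale. The class II genes nearest to them on the HLA-DQ side, HLA-DOB, HLA-DQB2, HLA-DQA2 and HLA-DQB1, did not pass the test, and HLA-DMB on the other side rose. All 3 genes on each side of CIITA passed the test, 4 higher and 2 lower. Among those that were higher, ENSG00000262151 (log2 fold change 1.77) overlaps CIITA by 22531 bases on the opposite strand and DEXI lies inside CIITA, also on the opposite strand, so reads there may be assigned to either gene. RMI2, a part of the BLM helicase complex, fell to 4.69 ± 0.776 FPKM with the inhibitor, against 20.8 ± 0.754 FPKM with DMSO (log2 fold change -2.15). CLEC16A, between CIITA and RMI2, fell by 0.27 and DEXI, with an overlap of 13578 bases, rose by 0.37. Around CD74, 4 of 6 rose, 1 fell and 1 did not pass the test. The neighbours RPS14 and TCOF1, a ribosomal protein gene and a ribosome biogenesis gene, had log2 fold changes of 0.96 and -1.32.

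**Figure D5:**
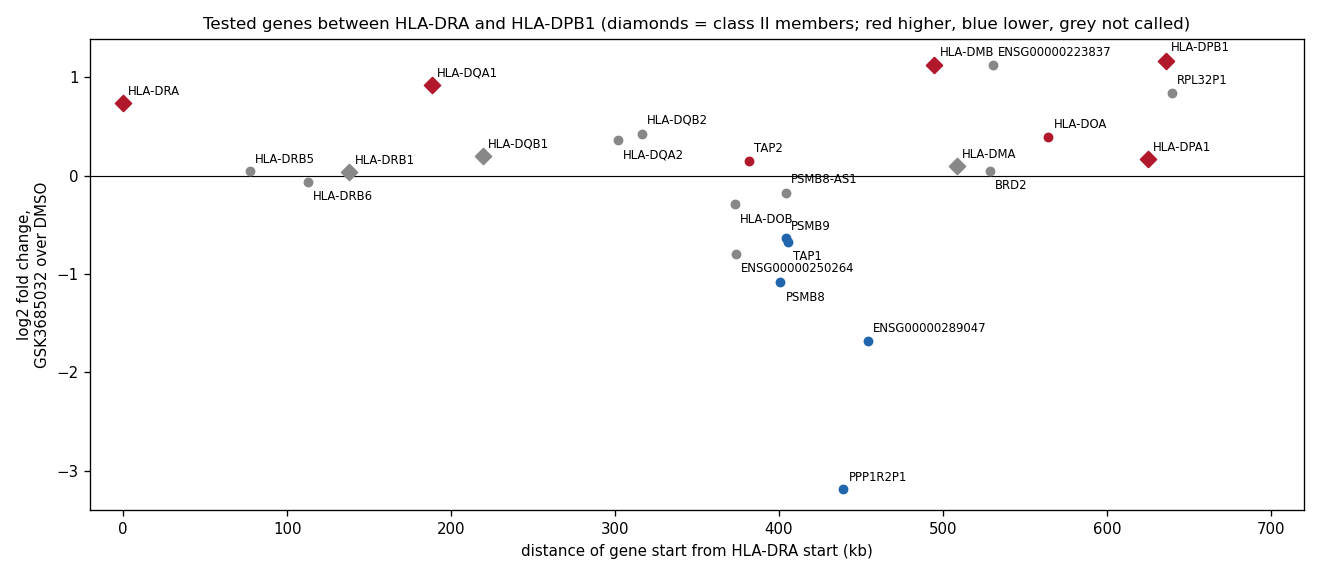
Log2 fold change, GSK3685032 over DMSO, of the 25 genes tested between HLA-DRA and HLA-DPB1 (vertical axis), against the distance of each gene's start from the start of HLA-DRA in kb (horizontal axis), with class II members as diamonds, red for higher, blue for lower and grey for not past the test. HLA-DRA, HLA-DMB and HLA-DPB1 lie between 0.74 and 1.17, while PSMB8 and TAP1 between them lie at -1.08 and -0.67. The lowest point is PPP1R2P1 at -3.18.

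Among 12888 genes with a mean of 1 FPKM or more in at least a single group, the 5 whose profile over the 6 libraries was closest to that of CIITA were SAE1, DNAJC11, POLH, IGHV5-78 and NDUFA9, with root mean square differences of 0.0239 to 0.0313 in log2(FPKM + 0.5) relative to each gene's DMSO mean. Among those closest to HLA-DRA were TSC22D1, SOCS2, RPS3 and SLC2A3, at 0.0252 to 0.0340. The members themselves were left out of this comparison, so none of them could be among the closest genes. The measure ranks likeness over 2 groups of 3 libraries, so any gene with a change of similar size and small spread comes close.

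The HLA genes are polymorphic, and reads of the line's own alleles may map unevenly to the reference, which was not tested. Of the 100-base windows in each member's longest coding transcript, none was shared with another gene's transcript for HLA-DRA, HLA-DRB1, HLA-DPA1, HLA-DPB1, HLA-DQB1 and CD74. The share was 2.41% for HLA-DQA1, with HLA-DQA2. It was 7.32% for HLA-DMA and 26.3% for HLA-DMB, with an overlapping gene model (AL645941.2), and 14.3% for CIITA, with a gene model inside it (AC133065.3). Only exact matches were counted, so these shares do not bound the uncertainty of any member's counts. Reads of near copies that differ by a few bases, such as HLA-DRB1 and HLA-DRB5, may still be assigned to either gene. The overlap of HLA-DPA1 and HLA-DPB1 on opposite strands is also not covered. Gene models of this transcript set need not be those of the deposited table.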

How the data were processed

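The deposited table holds, per the file headers, estimated counts and FPKM for each gene in each of 6 libraries. Tools named in the submitters' processing notes are StringTie 2.1.6, HISAT2 2.2.1, cutadapt 1.9, edgeR and DESeq2, and the notes do not say what each did. The same notes name mm10, but gene IDs and coordinates in the table are human and were read as GRCh38. The deposited counts are whole numbers that pile up at 4 (1320 genes per library on average, against 726 at 3 and 474 at 5), so about 4 counts were taken as 1 read pair. Per the labels' protocols the kit marks strand. Whether counting used strand is not given in these sources.

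Libraries were grouped by title. Counts of 20783 genes that passed filterByExpr were tested with edgeR 4.0.16 (R 4.3.3; quasi-likelihood, TMM factors of 0.981 to 1.02, two-sided, Benjamini-Hochberg over all tested genes, called at 0.05), and the code was tested on simulated data. Levels between genes, ratios and profiles use the FPKM values as deposited (pseudocount of 0.5 for profiles). Ratios were tested by exact permutation (scipy 1.17.1). No 2 libraries held identical values. Deviations of same-numbered libraries from their group means correlated at 0.000490, 0.0211 and 0.00268, so numbers were not taken as pairs.

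The members and gene lists were chosen with earlier results of these data known. Text names all members, DNMT1, and up to 4 called genes per list with the largest log2 fold change; other genes of the lists and neighbours were named after their values were seen. Some genes these rules select are left out here. Alternatives were DESeq2 1.42.0, other scalings and filters, counts divided by 4, limma 3.58.1 on log2(FPKM + 0.1, 0.5 or 1), a replicate block, each library left out, and inhibitor replicate 1 alone. Intervals and floors cover counting error or the spread between libraries only.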

Additional observations from a re-analysis of the deposited data

How the results depend on the processing

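Over all 18 settings CIITA stayed lower (log2 fold change -1.26 to -1.06) and CD74, HLA-DRA, HLA-DPB1 and HLA-DMB stayed higher, each past the threshold. HLA-DQA1 was called in all 17 settings that tested it, at 0.32 to 1.09, the smallest on the log2(FPKM + 1) scale, which shrinks low levels. Of 185 alternative values for the 10 members and RFXAP, 175 kept their direction and side of the threshold, 5 passed it newly, 2 lost it and 3 changed sign. Other genes named were rerun only within the counts of their lists. With upper-quartile scaling the all-gene median shifted by 0.17, and HLA-DRB1 (0.21, adjusted p = 0.00639 in edgeR) and HLA-DMA (0.27, adjusted p = 0.00247 in edgeR) then passed, giving 8 members higher, and 4 promoter-binding factors higher instead of 2. With genes of at least 1 FPKM in at least 3 libraries, the same 2 genes passed (0.13, adjusted p = 0.0470, and 0.19, adjusted p = 0.0122, in edgeR), and HLA-DQA1 and HLA-DQB1 were not tested. With a library left out, HLA-DRB1 ranged from -0.00390 (without inhibitor replicate 1) to 0.0727, and HLA-DQB1 from -0.0144 (without inhibitor replicate 1) to 0.39, with -0.00217 without DMSO replicate 1, all uncalled as before. HLA-DPA1 missed the threshold with inhibitor replicate 1 alone (0.17, adjusted p = 0.0519 in edgeR) as well as without DMSO replicate 1, which left 5 members higher. The replicate block changed no call among the members (6 higher, 1 lower). The numbers share no pairing in the data, and over all genes the block gave 7448 higher and 5368 lower. As a percent of summed FPKM, the members took 0.458 with the inhibitor and 0.290 with DMSO. With 5 genes on each side, 5 neighbours of CIITA and 2 of CD74 were lower. The cause of these differences was not tested. HLA-DQA1 and HLA-DQB1 rest on the fewest counts of the members.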
